A study of Mus musculus with 12 samples.

Results

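The 3 embryonic globin genes Hbb-y, Hbb-bh1 and Hba-x and 5 regulators of the globin switch, Bcl11a, Sox6, Zbtb7a, Nr2c1 and Nr2c2, were examined in MEL cells with and without knockdown of the histone methyltransferase G9a. Members were all probe sets that the platform annotation ties to exactly 1 of these 8 symbols, with no filter on expression. This gave 32 of the 45037 non-control probe sets on the array, and 8 of the 18194 genes that carry a single-gene probe set. Embryonic globin transcripts lay at or near the array background in both groups. Transcripts of all 5 regulators were above background. No regulator probe set passed the test for a difference between the groups. Of all 17028 tested probe sets only 1 did (0.00587%), so this says little about the regulators.

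MEL is a mouse erythroleukemia line that matures along the red cell lineage when given dimethyl sulfoxide (DMSO). Total RNA from 3 wild type and 3 G9a knockdown samples was labelled with biotin, hybridized to Affymetrix arrays and summarised in both MAS5 and GCRMA. By the protocol text, which is the same for both groups, DMSO was present at 2% for 4 days, and doxycycline (Dox) at 5 µg/ml induced the knockdown. The labels do not say whether wild type cells were given Dox, which knockdown construct or clone was used, or whether replicates were separate cultures, so the p-values measure a spread between arrays that may be technical.

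Globin switching is the replacement of embryonic globin chains, made in the first red cells of the yolk sac, by adult chains. BCL11A is a zinc finger repressor that silences embryonic globin genes in adult-stage mouse erythroid cells together with the HMG-box factor SOX6, and ZBTB7A (LRF) represses them as a separate factor. NR2C1 (TR2) and NR2C2 (TR4) are orphan nuclear receptors that bind direct repeats of a hexamer resembling AGGTCA in embryonic globin promoters, and G9a, encoded by Ehmt2, methylates histone H3 at lysine 9.

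The promoters of Hbb-y and Hba-x are printed because these are the sequences next to the start sites of embryonic genes whose transcripts lay at or near background. Each stretch holds the 250 bases before the gene start in RefSeq, build GRCm38.p6, read 5′ to 3′ along the gene. Hbb-y lies on the minus strand at chr7:103853208-103853457, and Hba-x on the plus strand at chr11:32276350-32276599. Windows were held for 7 of the 8 genes, Hbb-bh1 being the one without. Capitals mark matches on either strand to the GATA factor motif GATAA, the KLF-type box CACCC, the CAAT box CCAAT, the BCL11A motif TGACCA, the nuclear receptor hexamers AGGTCA and its variant GGGTCA, and the SOX-type motif ACAAT.
Hbb-y: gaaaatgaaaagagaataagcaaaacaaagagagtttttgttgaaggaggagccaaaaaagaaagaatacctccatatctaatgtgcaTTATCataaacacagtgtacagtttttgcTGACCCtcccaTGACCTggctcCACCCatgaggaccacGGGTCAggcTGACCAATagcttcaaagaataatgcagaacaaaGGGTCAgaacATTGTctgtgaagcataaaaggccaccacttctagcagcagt
Hba-x: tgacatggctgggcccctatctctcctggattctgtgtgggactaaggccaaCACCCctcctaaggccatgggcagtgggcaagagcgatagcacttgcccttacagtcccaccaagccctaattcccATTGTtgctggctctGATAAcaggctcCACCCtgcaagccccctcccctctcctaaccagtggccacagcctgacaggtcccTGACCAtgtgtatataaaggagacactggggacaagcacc

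The Hbb-y stretch held 9 matches. GGGTCA occurred 3 times, beginning 133 (minus strand), 95 and 52 bases before the start, and AGGTCA occurred once, beginning 122 bases before it on the minus strand. CACCC began 111 bases before the start, and CCAAT began 83 bases before it, overlapping a TGACCA that began 86 bases before. GATAA and ACAAT each matched once, on the minus strand, beginning 162 and 42 bases before the start. The Hba-x stretch held 5 matches. These were GATAA beginning 107 bases before the start, CACCC at 198 and 95, TGACCA at 40, and ACAAT at 122 on the minus strand. Of 32536 promoter windows of the same length, 22.5% held GATAA, 52.1% CACCC, 33.8% CCAAT, 11.4% TGACCA, 14% AGGTCA, 11.7% GGGTCA and 27.4% ACAAT, counting both strands. A match describes letters in the sequence and does not show that a factor binds there.

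The knockdown and the cell type were checked first. Ehmt2 probe set 1426888_at read 7.43, 7.07 and 6.82 in the wild type arrays and 4.29, 4.28 and 4.16 in the knockdown arrays (GCRMA log2, limma adjusted p = 0.0216). The brighter Ehmt2 probe set, 1460692_at, differed by −2.87 but was not called (limma adjusted p = 0.0719). Of 9 erythroid markers, 7 had a single-gene probe set, and all 7 of these passed the filter at log2 4 and were above background. Of the 7 measured B and T lymphoid markers 0 passed that filter, and 2 were above background. Limma called 0 of the erythroid markers, with 0 at an unadjusted p under 0.05. The megakaryocyte markers summed to between 29.5 and 31.1 over the 5 measured genes in wild type and to between 26.8 and 29.5 in the knockdown (log2), with Itga2b at 11.65 to 12.08 and 10.93 to 11.47. The 7 myeloid markers summed to 22.7 to 23.4 and 23.4 to 24.5. Of these, Prtn3 read 3.97 to 5.25 and 5.04 to 6.30, and Csf1r 6.32 to 6.81 and 6.35 to 6.59. In each of these 2 lists 2 genes were tested, and limma called 0 of them. At an unadjusted limma p under 0.05 there was 1 in each list, against 5.98% of all genes. Fibroblast and endothelial markers had 0 of 6 genes above background, with sums of 15.5 to 16.2 and 15.4 to 15.7. Whether the megakaryocyte and myeloid genes bear on the members' values was not tested. In both groups the replicate 1 array stood apart from replicates 2 and 3.

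Background was set by 43 probe sets for olfactory receptor genes, which serve as a reference for probe sets with little target. Their 95th percentile on each array, here called the background ceiling, was 2.94, 2.98 and 3.09 in wild type arrays 1 to 3 and 2.97, 2.92 and 2.97 in knockdown arrays 1 to 3 (GCRMA log2). In MAS5, a linear intensity, the ceilings were 60.3, 83.3 and 114 in wild type and 77.8, 70.0 and 71.0 in the knockdown. A probe set counted as above background when it passed the ceiling of its own array in at least 3 of the 6 arrays. This held for 20 of the 32 member probe sets in GCRMA, against 51.2% of all probe sets, and for 19 in MAS5, against 45.8%. Among embryonic globins it held for 2 of 7 in GCRMA and 0 of 7 in MAS5, and among regulators for 18 of 25 and 19 of 25. The limma fit tested probe sets above log2 4 in at least 3 arrays, and 16 of the 32 members qualified, all of them regulators. The other 16, comprising the 7 embryonic globin probe sets and 9 regulator probe sets, fell under that filter.

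Hbb-y encodes the embryonic β-like chain εy. Its probe set 1436823_x_at read 2.91, 2.95 and 3.06 in wild type arrays 1 to 3 and 3.42, 3.12 and 3.08 in the knockdown arrays (GCRMA log2). All 3 knockdown values were above all 3 wild type values, by the narrow margin between 3.06 and 3.08. Relative to their background ceilings the wild type arrays lay at −0.028, −0.028 and −0.024, and the knockdown arrays at 0.46, 0.21 and 0.11. The means were 2.98 ± 0.079 and 3.21 ± 0.19 (SD, n = 3 each), a difference of 0.23, with same-numbered arrays differing by 0.51, 0.17 and 0.018. The two-sided exact permutation p was 0.10, the smallest that 3 against 3 arrays allow. In MAS5 the probe set read 4.69, 2.99 and 25.8 in wild type and 54.9, 47.1 and 32.1 in the knockdown. These groups were also apart (exact permutation p = 0.10), but every MAS5 value was under its array's ceiling, so no fold is given. In RNA from whole cultures, fewer expressing cells and less RNA per cell cannot be told apart. The suffix of this probe set marks probes that may also match other transcripts, which was not tested here.

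The groups of this Hbb-y probe set were apart in both summaries, as were 14 of 28009 probe sets under the filter (0.05% with the knockdown higher in both, and 0.143% with it higher in GCRMA). The separation depended on scaling. With each array centred on its median the difference was again 0.23 but the groups overlapped, the lowest knockdown value being 3.07 and the highest wild type value 3.11. With quantile normalization they stayed apart, with a difference of 0.27. Without knockdown replicate 1 the difference fell to 0.13, and without both replicate 1 arrays to 0.094. Over the 43 olfactory receptor probe sets the GCRMA difference had a median of −0.022 and was negative in all 43, and its median between same-numbered arrays was 0.014, −0.040 and −0.041.

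The other Hbb-y probe sets did not repeat this separation in GCRMA. Probe set 1436717_x_at read 2.89, 2.93 and 3.04 in wild type and 3.21, 2.86 and 2.92 in the knockdown. Only knockdown array 1 was above its ceiling, and the groups overlapped, with a difference of 0.042 (exact permutation p = 0.90) and same-numbered differences of 0.32, −0.075 and −0.12, and the difference was −0.098 without both replicate 1 arrays. Its MAS5 values were 5.10, 1.52 and 1.65 in wild type and 46.9, 6.31 and 24.6 in the knockdown, so that the groups were apart (exact permutation p = 0.10) with all 6 values under the ceiling. Probe set 1450621_a_at read 2.61, 2.65 and 2.74 in wild type and 2.63, 2.61 and 2.63 in the knockdown, under the ceiling in every array. Its groups overlapped, with a difference of −0.044 and same-numbered differences of 0.019, −0.041 and −0.11. Its MAS5 values, 7.82, 10.7 and 47.9 against 17.5, 44.0 and 4.01, overlapped too (exact permutation p = 0.40 in GCRMA and 0.90 in MAS5).

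Hbb-bh1 encodes the embryonic β-like chain βh1. Its probe set 1437810_a_at read 3.05, 3.03 and 3.03 in wild type and 3.03, 2.84 and 2.88 in the knockdown (GCRMA log2). It passed the ceiling in wild type arrays 1 and 2 and knockdown array 1, and in none in MAS5, where it read 10.8, 62.6 and 96.1 against 14.2, 3.09 and 14.4. The groups overlapped in both summaries, and the GCRMA difference was −0.12 (exact permutation p = 0.30 in each summary), with same-numbered differences of −0.015, −0.18 and −0.15. The other 2 probe sets, 1437990_x_at and 1450736_a_at, lay under the ceiling on all 6 arrays in both summaries. They differed by −0.039 and −0.041 in GCRMA, with exact permutation p of 0.40 each. The MAS5 values of 1437990_x_at were 6.51, 3.37 and 4.83 in wild type and 7.45, 4.36 and 12.7 in the knockdown. Those of 1450736_a_at were 5.63, 5.25 and 46.1 in wild type and 53.6, 9.50 and 13.8 in the knockdown. The groups of both overlapped.

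Hba-x encodes the embryonic α-like chain ζ and has 1 probe set, 1448716_at. It read 2.85, 2.87 and 2.90 in wild type and 2.85, 2.88 and 2.88 in the knockdown (GCRMA log2). All 6 values were under the ceiling and the groups overlapped, with same-numbered differences of 0.0073, 0.012 and −0.020. The MAS5 values were 47.6, 60 and 25.9 in wild type and 53.2, 95.6 and 65.5 in the knockdown, where only knockdown array 2 passed its ceiling. The exact permutation p was 1.0 in GCRMA and 0.20 in MAS5. On the same arrays the probe set shared by the adult β-globin genes, 1417184_s_at, read 15.00, 15.03 and 15.01 in wild type and 14.91, 15.20 and 14.86 in the knockdown, with overlapping groups. In MAS5 it read 40600, 37688 and 41753 in wild type and 48280, 59714 and 42877 in the knockdown, so that all 3 knockdown values were higher there. The other adult α- and β-globin probe sets had overlapping groups in both summaries.

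Wild type array 3 gave the highest wild type GCRMA value at 6 of the 7 embryonic globin probe sets and at 43 of the 43 olfactory receptor probe sets. The globin exception was Hbb-bh1 1437810_a_at, where wild type array 1 was the highest.

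**Figure D1:**
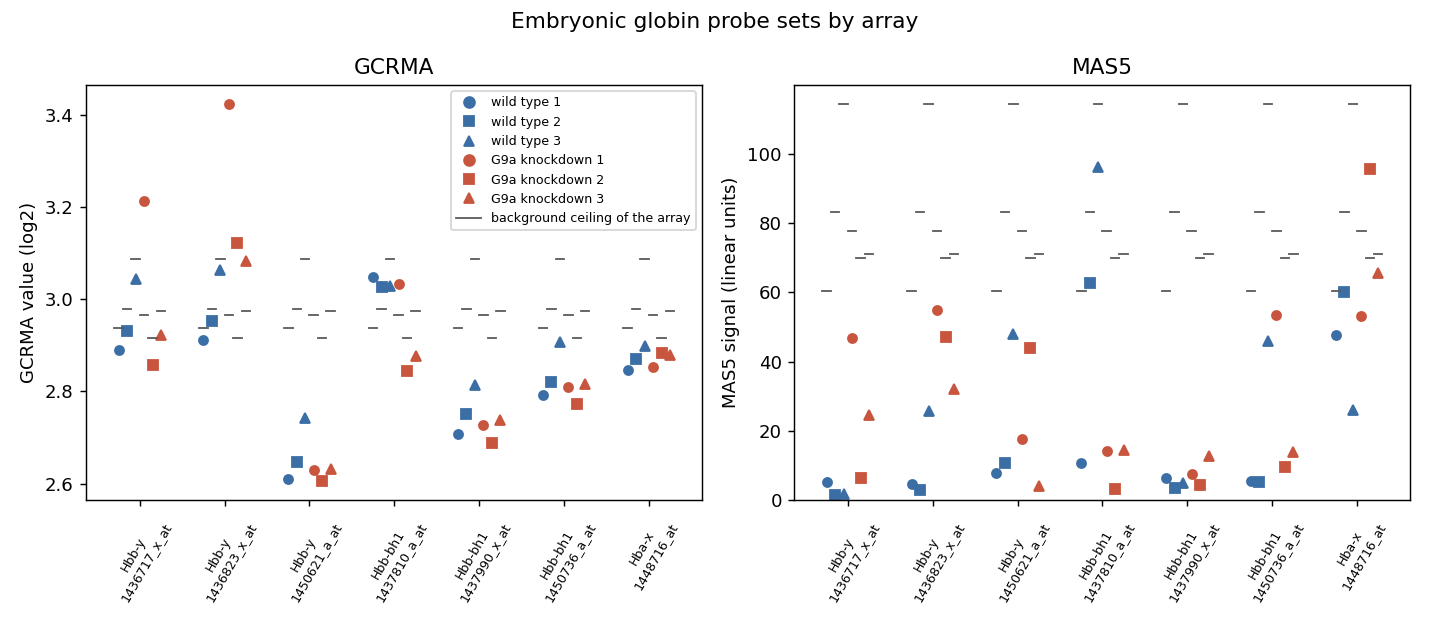
GCRMA log2 values (left) and MAS5 linear intensities (right) of the 7 embryonic globin probe sets on each of the 6 arrays, with a short line at each array's background ceiling, the 95th percentile of 43 olfactory receptor probe sets. Hbb-y 1436823_x_at has all 3 knockdown points above the wild type points and above their ceilings in GCRMA, and all of its MAS5 points lie under their ceilings.

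Bcl11a was above background at 4 tested probe sets. Probe set 1419406_a_at read 9.39, 8.59 and 8.60 in wild type and 9.59, 8.61 and 8.50 in the knockdown (GCRMA log2). Replicate 1 was the highest in both groups, and the groups overlapped. The difference was 0.047 (95% interval −0.81 to 0.90, limma adjusted p = 0.990), with same-numbered differences of 0.21, 0.029 and −0.097. In MAS5 it read 838, 644 and 653 in wild type and 1013, 622 and 584 in the knockdown, a difference of 0.021 on the log2(value + 1) scale, on which all MAS5 differences are given.

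The other tested Bcl11a probe sets overlapped between groups as well. Probe set 1426552_a_at read 7.66, 6.88 and 7.15 in wild type and 7.66, 7.14 and 7.08 in the knockdown, a difference of 0.060 (−0.53 to 0.65). The MAS5 values were 382, 189 and 189 against 406, 304 and 289, a difference of 0.46 (−0.27 to 1.19, limma adjusted p = 0.879). Probe set 1456632_at read 7.32, 6.77 and 6.89 in wild type and 7.61, 6.42 and 7.06 in the knockdown, a difference of 0.031 (−0.72 to 0.79) and of 0.053 in MAS5. Its same-numbered arrays differed by 0.28, −0.36 and 0.17, so that pair 2 ran against the others. Probe set 1457072_at read 7.47, 7.09 and 7.13 in wild type and 7.80, 6.54 and 7.09 in the knockdown, a difference of −0.084 (−0.84 to 0.67) and of −0.10 in MAS5. Its same-numbered differences were 0.33, −0.55 and −0.038, and without both replicate 1 arrays it differed by −0.29.

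The largest contrast in Bcl11a was between replicate numbers, not between groups. Replicate 1 lay above the mean of replicates 2 and 3 by 0.80, 0.64, 0.49 and 0.36 at the 4 tested probe sets in wild type, in the order above, and by 1.04, 0.55, 0.87 and 0.98 in the knockdown. Replicate 1 was above the mean of the others in both groups at 10 of the 16 tested member probe sets, against 40.1% of all tested probe sets. Zbtb7a went the other way at 1450093_s_at (−0.22 in wild type arrays, −0.13 in knockdown arrays), at 1452932_at (−0.35 and −0.36) and at 1437255_at (−0.033 and −0.20). In MAS5 the shifts at 1437255_at were −0.74 in wild type and 0.29 in the knockdown. Without both replicate 1 arrays the difference of Bcl11a 1419406_a_at was −0.034. Bcl11a is also a lymphoid gene, and on these arrays the 7 measured B and T lymphoid markers summed to 18.0 to 18.6 in wild type and 18.1 to 18.5 in the knockdown (log2), with Cd79a at 2.20 to 2.26 and 2.17 to 2.22 and Pax5 at 2.00 to 2.04 and 2.00 to 2.02. Cd79b read 2.40 to 2.48 in wild type and 2.43 to 3.09 in the knockdown. Ebf1 read 2.93 to 3.12 and 2.91 to 2.96, Cd3e 2.97 to 3.01 and 2.94 to 2.99, and Cd3g 2.27 to 2.37 and 2.24 to 2.29. Of these markers 2 were above background, among them Cd4 at 3.23 to 3.35 and 3.20 to 3.25.

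The remaining 3 Bcl11a probe sets fell under the filter. Probe set 1447335_x_at read 3.19, 2.80 and 2.82 in wild type and 2.79, 2.76 and 2.77 in the knockdown. All knockdown values were below all wild type values (difference −0.16, exact permutation p = 0.10), and only wild type array 1 was above its ceiling. Without wild type replicate 1 the difference was −0.033, with quantile normalization the groups overlapped, and in MAS5 they overlapped as well (163, 107 and 37.8 against 111, 54.2 and 77.1). Probe sets 1447334_at and 1453814_at read 2.16 to 2.44 and 2.35 to 2.46 over the 6 arrays, under the ceiling in GCRMA, with differences of −0.067 and −0.035. In MAS5 the first of these passed the ceiling in 4 arrays and the second in 0.

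Sox6 was tested at 3 probe sets. Probe set 1427677_a_at read 6.12, 6.27 and 5.73 in wild type and 6.10, 6.06 and 5.95 in the knockdown, a difference of −0.0011 (−0.38 to 0.38, limma adjusted p = 1.00) and of −0.043 in MAS5. Its knockdown values lay within the wild type range. Probe set 1434918_at read 4.14, 4.15 and 4.12 in wild type and 4.29, 4.15 and 4.08 in the knockdown, close to the filter at log2 4, with a difference of 0.039 (−0.21 to 0.29). Probe set 1447655_x_at read 5.54, 5.56 and 5.57 in wild type and 6.08, 5.53 and 5.43 in the knockdown, with a difference of 0.12 (−0.31 to 0.56). Knockdown array 1 alone was above the wild type arrays there, and without both replicate 1 arrays the difference was −0.082. Both of these probe sets differed by 0.22 in MAS5.

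The fourth Sox6 probe set, 1426018_a_at, was above its ceiling on all 6 arrays but under the filter. It read 4.51, 3.96 and 3.12 in wild type and 3.29, 2.94 and 3.48 in the knockdown. Wild type arrays 1 and 2 were above every knockdown array and wild type array 3 was not, so the groups overlapped. The difference was −0.63 (exact permutation p = 0.30), with same-numbered differences of −1.22, −1.02 and 0.36, and −0.30 in MAS5. Leaving out wild type replicate 1 gave −0.30, and leaving out replicate 3 of that group gave −0.997.

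Zbtb7a was tested at all 3 of its probe sets. Probe set 1452932_at read 6.86, 7.33 and 7.08 in wild type and 6.69, 6.79 and 7.31 in the knockdown, a difference of −0.15 (−0.65 to 0.34). In MAS5 it read 188, 316 and 277 against 182, 288 and 351, a difference of 0.055, so the sign depended on the summary. Probe set 1450093_s_at read 6.53, 7.04 and 6.45 in wild type and 6.78, 6.84 and 6.98 in the knockdown, a difference of 0.19 (−0.23 to 0.62) and of 0.24 in MAS5. The knockdown arrays lay between the wild type extremes. Probe set 1437255_at read 4.24, 4.26 and 4.28 in wild type and 4.11, 4.24 and 4.37 in the knockdown, near the filter, with a difference of −0.023 and of 0.050 in MAS5.

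Nr2c1, which encodes TR2, had the 2 largest positive GCRMA differences among the tested regulator probe sets, neither past the threshold. In MAS5 the largest was that of Bcl11a 1426552_a_at, 0.46. Probe set 1449157_at read 5.94, 5.83 and 5.26 in wild type and 6.28, 5.90 and 6.02 in the knockdown. Knockdown array 1 was the highest and wild type array 3 the lowest, and the groups overlapped. Each same-numbered pair was higher in the knockdown in GCRMA, by 0.34, 0.073 and 0.76, and in MAS5 by 0.69, −0.047 and 0.082, which is higher in 2 of 3. The difference was 0.39 (−0.11 to 0.89) and had the lowest unadjusted p of the 16 tested probe sets, 0.106 in limma, with an adjusted p of 0.852. The difference was 0.18 without wild type replicate 3, and 0.52 at most with another array left out. With the replicate number as a block the unadjusted limma p was 0.048 and the adjusted p 0.360.

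The other Nr2c1 probe sets did not share this pattern across arrays. Probe set 1418605_at read 6.58, 5.76 and 5.05 in wild type and 6.10, 6.16 and 6.16 in the knockdown. The knockdown arrays were close together and the wild type arrays spanned both sides of them, with a difference of 0.34 (−0.52 to 1.21). That difference was 0.76 without both replicate 1 arrays and −0.028 without wild type replicate 3. In MAS5 the same probe set read 639, 414 and 494 in wild type and 429, 426 and 460 in the knockdown, a difference of −0.21. Probe set 1439490_at read 6.33, 5.88 and 5.90 in wild type and 6.26, 5.79 and 6.15 in the knockdown, a difference of 0.032 (−0.41 to 0.48) and of 0.068 in MAS5. Under the filter, 1446194_at read 2.17 to 2.40. Probe set 1458338_x_at read 3.78, 3.81 and 3.89 in wild type and 3.81, 3.01 and 3.77 in the knockdown, above the ceiling on every array in GCRMA and on 1 in MAS5, with a difference of −0.30 that rested on knockdown array 2.

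Nr2c2, which encodes TR4, showed the least spread of the 16 tested probe sets at 1454851_at. It read 10.28, 10.17 and 10.28 in wild type and 10.35, 10.22 and 10.29 in the knockdown, a difference of 0.039 (−0.20 to 0.28), within a range of 0.17 over the 6 arrays. In MAS5 it read 2781, 2760 and 2819 in wild type and 2708, 2708 and 2639 in the knockdown. All knockdown values were lower there (difference −0.054, exact permutation p = 0.10), so the sign depended on the summary. Probe set 1451569_at read 7.14, 6.91 and 6.80 in wild type and 7.32, 6.97 and 6.84 in the knockdown, a difference of 0.094 (−0.30 to 0.49). Probe set 1425014_at read 6.77, 6.91 and 6.57 in wild type and 6.58, 6.71 and 6.52 in the knockdown. Each same-numbered pair was lower in the knockdown, by −0.19, −0.20 and −0.051, with a mean of −0.15 (−0.45 to 0.16) in GCRMA and 0.029 in MAS5. Its probe sets 1439696_at, 1449605_at and 1454167_at, under the filter, read 2.89 to 3.04, 2.22 to 2.27 and 2.58 to 2.65, with overlapping groups.

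**Figure D2:**
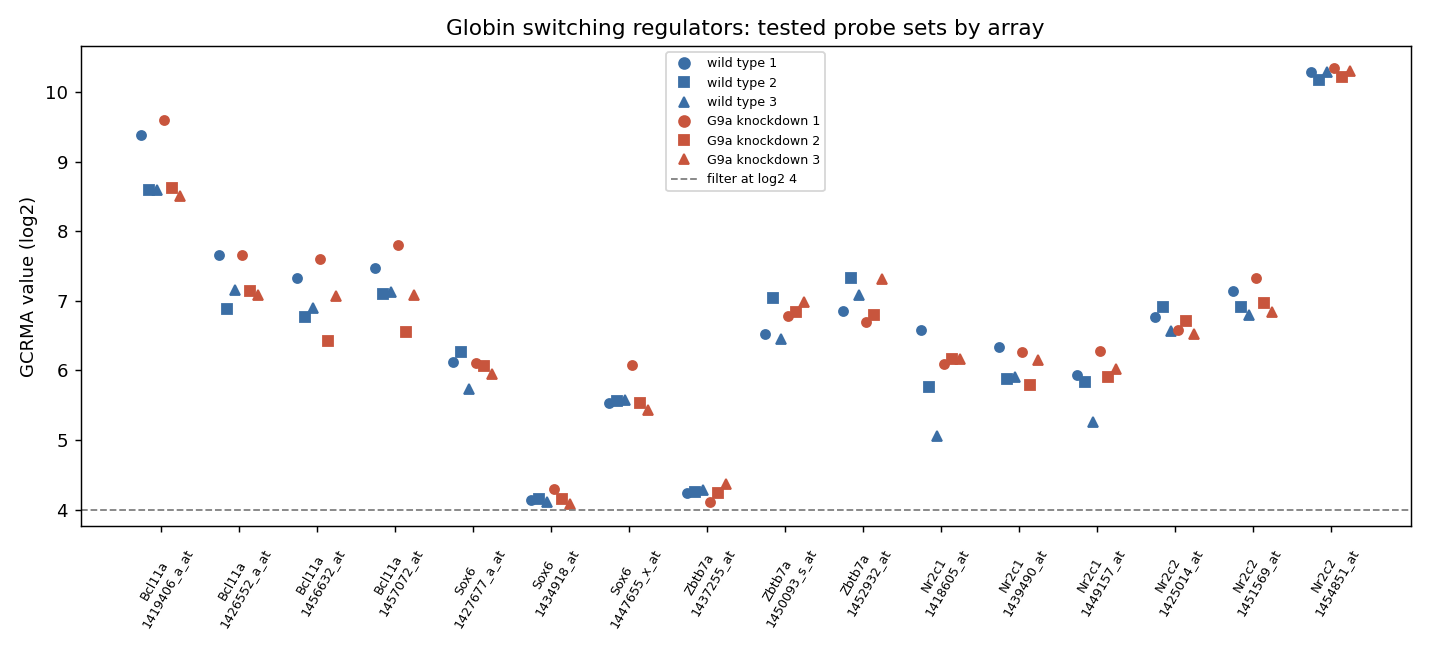
GCRMA log2 values of the 16 tested regulator probe sets on each array, circles, squares and triangles standing for replicates 1, 2 and 3, with the filter at log2 4 as a dashed line. Wild type and knockdown points overlap at every probe set, and both replicate 1 points of Bcl11a 1419406_a_at, at 9.39 and 9.59, lie above the other 4; levels of different probe sets are not comparable.

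Across the 16 tested regulator probe sets, limma called 0 at an adjusted p under 0.05, where 0.00587% of all tested probe sets were called, and 0 with the replicate block, where 0.0117% were. At an unadjusted p under 0.05 there were 0 of 16 in GCRMA, against 5.87% of all tested, and 0 of 16 in MAS5, against 6.47%. With the replicate block there was 1, Nr2c1 1449157_at, against 13.7%. The adjusted p-values in limma ran from 0.852 to 1.00, and all 16 of the 95% intervals held 0. The differences ran from −0.15 to 0.39, and the widest bounds, −0.84 and 1.21, correspond to 1.79-fold lower and 2.31-fold higher. The interval was narrower at other probe sets, and the size of change it leaves possible differs from one probe set to the next. The difference was positive at 11 of 16, against 48.3% of all tested probe sets, and had the same sign in both summaries at 11 of 16, against 79.4%.

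Over all 32 member probe sets the groups did not overlap at 2 in GCRMA, where 6.3% of all probe sets had groups apart. These were Hbb-y 1436823_x_at, higher in the knockdown, and Bcl11a 1447335_x_at, lower, both among the 16 members under the filter, where the share of all probe sets apart was 2.6%. None of the 16 tested members was apart, against 12.4% of all tested. In MAS5 the groups were apart at 3, against 10.8% of all. Of these, 2 lay under the filter, Hbb-y 1436717_x_at and 1436823_x_at, both higher (9.68% of probe sets under the filter were apart in MAS5, and 5.5% with the knockdown higher). The other was Nr2c2 1454851_at, lower, where 12.7% of tested probe sets were apart. Hbb-y 1436823_x_at was the member probe set found apart in both. In GCRMA these counts changed most without replicate 1, fewer arrays also making separation easier by construction. Without wild type replicate 1, 12 of 32 members were apart, against 55.9% of all probe sets, and 10 of 16 under the filter, against 74.4%. Without knockdown replicate 1 the counts were 8 of 32, against 12.4%, and 6 of 16, against 4.64%. Without both arrays they were 18 of 32, against 64.3%, and 14 of 16, against 79.4%.

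**Figure D3:**
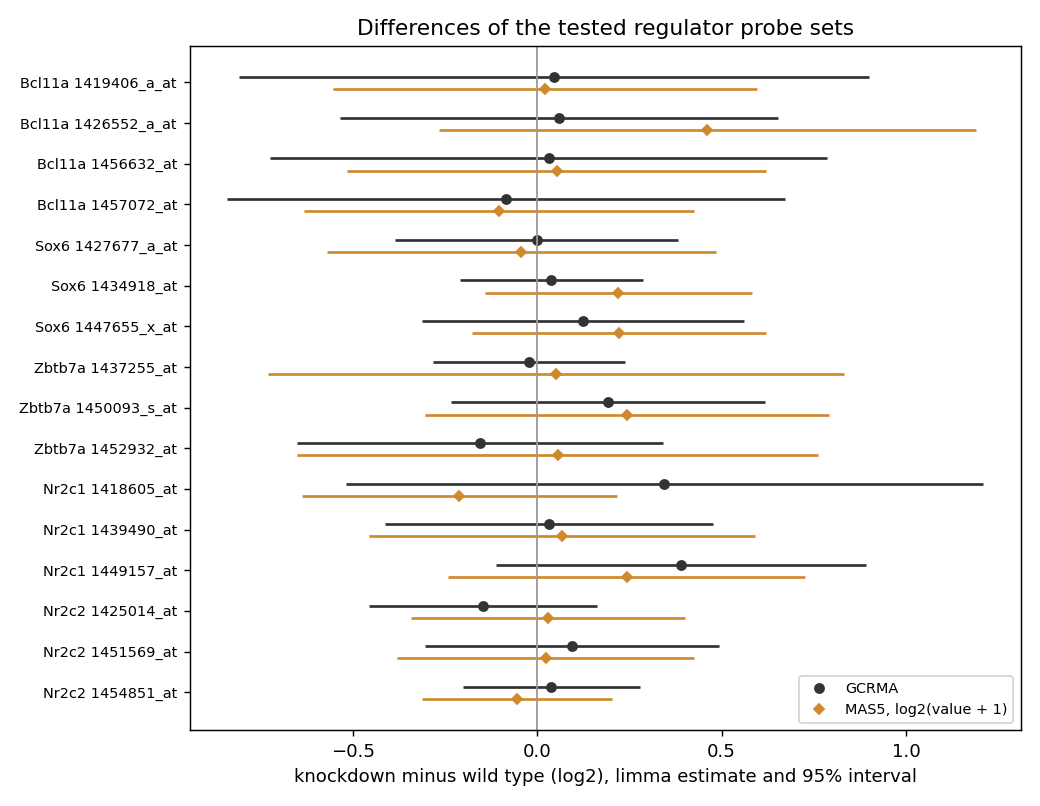
Knockdown minus wild type (log2) with 95% intervals from limma for the 16 tested regulator probe sets, in GCRMA (circles) and in MAS5 as log2(value + 1) (diamonds). Every interval crosses 0, and Nr2c1 1449157_at has the highest GCRMA estimate, 0.39.

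Other factors of globin switching were taken from a list of 50 partners and regulators, of which 48 had a single-gene probe set and 43 were tested. The difference was positive for 27 of 43 (62.8%), against 48.9% of all 9025 genes tested, with a median of 0.053 against −0.0063. Without knockdown replicate 1 it was positive for 21 of 43, with a median of −0.00093. Limma called 0 of the 43, and also 0 of the 9025 genes by their brightest probe set. At an unadjusted p under 0.05 there were 2 of 43 (4.65%), against 5.98% of all genes. These were Ehmt2 itself at 1460692_at, with 9.92, 10.03 and 10.23 in wild type and 6.67, 7.33 and 7.58 in the knockdown (difference −2.87, −3.45 to −2.29, adjusted p = 0.0719 in limma and 0.0316 with the replicate block), and Lmo2.

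Lmo2 encodes a bridging protein of the GATA1 and TAL1 complex. It read 9.42, 9.55 and 8.95 in wild type and 9.91, 10.25 and 9.64 in the knockdown, and the lowest knockdown value was above the highest wild type value. The difference was 0.63 (0.10 to 1.15, limma adjusted p = 0.789) and 0.52 in MAS5. Nfia, a nuclear factor I gene active in erythroid differentiation, read 8.13, 8.01 and 7.64 in wild type and 7.57, 7.66 and 7.04 in the knockdown, with overlapping groups and a difference of −0.50 (−1.01 to 0.011, limma adjusted p = 0.852). Mta1, a subunit of the NuRD deacetylase complex that BCL11A and ZBTB7A recruit, read 11.40, 11.60 and 11.25 in wild type and 11.56, 12.02 and 11.73 in the knockdown. Its difference was 0.35 (−0.033 to 0.74, limma adjusted p = 0.852), and the groups overlapped.

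Values chosen for their known roles, after they had been seen, are those of Klf1 and the NuRD complex. Klf1, an erythroid factor that activates Bcl11a and adult β-globin, read 12.71, 12.65 and 12.11 in wild type and 13.00, 13.05 and 12.62 in the knockdown. The groups overlapped, with a difference of 0.40 (−0.094 to 0.89, limma adjusted p = 0.852). The 12 NuRD genes tested differed by −0.26 to 0.35, with 6 positive and all 12 intervals holding 0 (limma adjusted p 0.852 to 0.992). Of the genes of the fetal program on the list, Lin28b (3.55 to 3.73), Igf2bp3 (3.15 to 3.40) and Hmga2 (2.57 to 2.64) fell under the filter on all arrays, while Igf2bp1 passed it, at 4.64 to 4.76 in wild type and 4.64 to 4.66 in knockdown arrays.

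**Figure D4:**
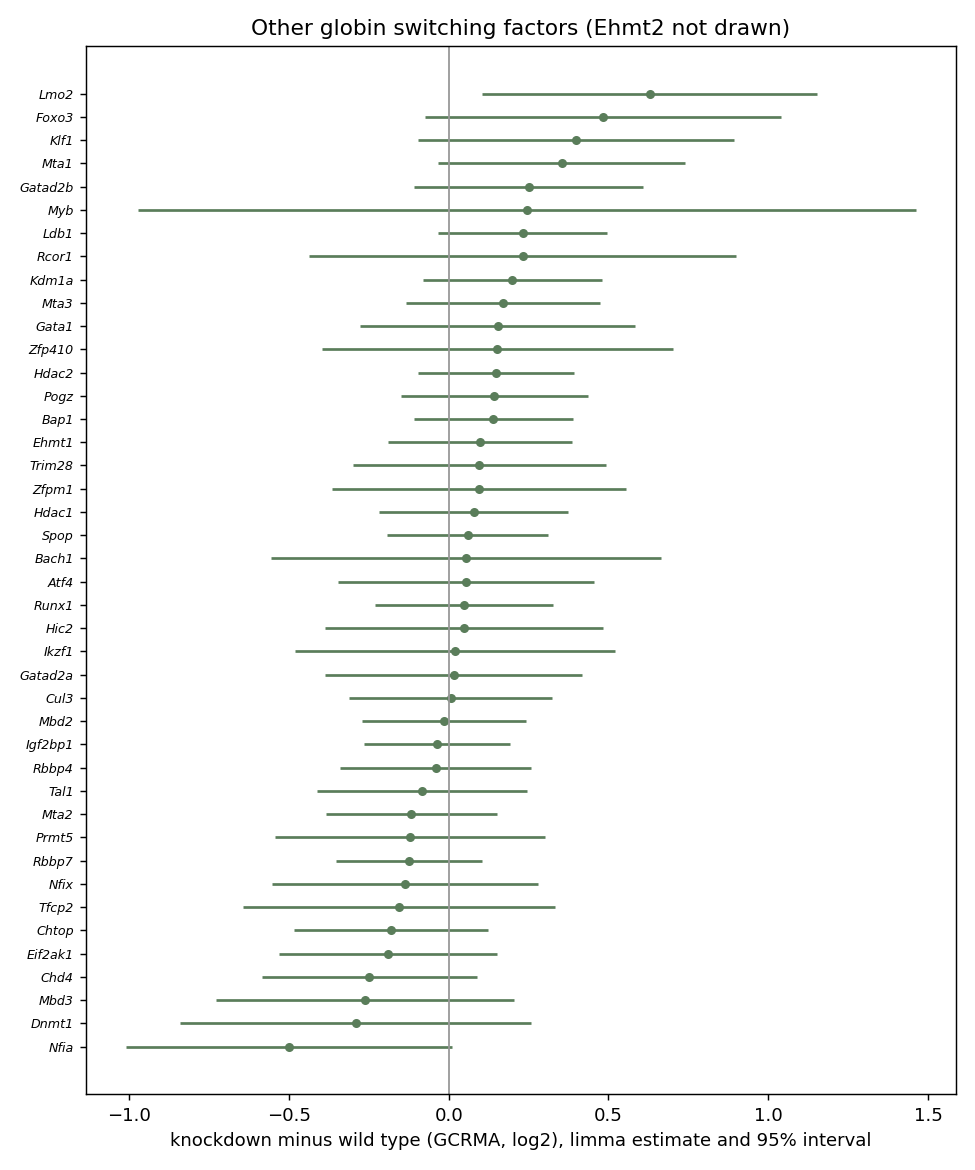
Knockdown minus wild type (GCRMA log2) with 95% limma intervals for the tested genes of the partner list, each by its brightest probe set and ordered by difference, Ehmt2 at −2.87 not being drawn. The interval of Lmo2, 0.10 to 1.15, is the one that does not cross 0.

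For each regulator whose brightest probe set, or lead probe set, spanned more than 0.5 log2 units over the 6 arrays, the 2 tested genes with the most similar pattern were found. Likeness was the root mean square difference of deviations from each probe set's own mean over the 6 arrays, in GCRMA, where 0 is an identical pattern. For Bcl11a 1419406_a_at these were Endog (0.073) and Pklr (0.080), for Sox6 1427677_a_at Tubgcp6 (0.046) and Stom (0.048), for Zbtb7a 1452932_at Trp53inp1 (0.049) and Ublcp1 (0.051), and for Nr2c1 1439490_at Ccm2 (0.030) and Tcn2 (0.033). In MAS5 the same pairs differed by 0.13 to 0.26, which is further apart in every case. The pairs were chosen as nearest in GCRMA, which favours a larger MAS5 difference by construction, so the comparison says little about the members. Nr2c2 spanned 0.17 and was left out.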

How the data were processed

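The 6 arrays were used, each in the 2 summaries the authors deposited. The deposited GCRMA columns, which are log2 values, and the deposited MAS5 columns, which are linear intensity values, carry matching group and replicate labels. They were taken to come from the same hybridizations, so they were never counted as further replicates. Neither software versions nor GCRMA options are given in the sources used here. GCRMA models background from probe sequence, which compresses values near background.

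The 64 control probe sets were left out. Gene names came from the platform annotation (34958 probe sets with 1 symbol, 932 with several, 9211 with none). The 32 member probe sets matched the RefSeq gene table by gene identifier. Of all probe sets, 17028 were above log2 4 in at least 3 arrays and were fitted with limma (version 3.58.1, under R 4.3.3) by lmFit followed by eBayes, with Benjamini-Hochberg adjustment over all of them and a threshold of 0.05. The fit was tried on simulated independent arrays with differences larger than those of the tested members. That trial does not bear on differences of the size seen here. All member probe sets had two-sided exact permutation tests, over all assignments of the arrays, quoted mainly for those under the filter. MAS5 was fitted as log2(value + 1). A gene was represented by its probe set with the highest mean. Named were all member probe sets, Ehmt2, the adult β-globin probe set, the 4 partner genes with the lowest p and the 2 genes nearest each member in pattern. Members and lists were chosen with earlier results of these data known. Precision is limited by 3 arrays per group.

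After subtraction of group means, same-numbered wild type and knockdown arrays correlated at 0.72, 0.57 and 0.37, and differently numbered ones at −0.59 to 0.17. Because group means were subtracted, a high correlation at the same number forces lower ones at the other numbers. Without the subtraction, knockdown arrays 1 and 2 correlated most with their same-numbered wild type arrays (0.990 and 0.991). Knockdown array 3 correlated more with wild type array 2 (0.9893) than with wild type array 3 (0.9883). A pairing by number is therefore uncertain, above all for number 3, and no label explains the numbers. Alternatives were other normalizations, filters, MAS5 with 2 pseudocounts, a variance trend, array weights, the replicate block and leaving out arrays.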

Additional observations from a re-analysis of the deposited data

How the results depend on the processing

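Under 16 alternatives to the limma fit, 0 member probe sets were called in each, the smallest adjusted p being 0.360 with the replicate block. Of all probe sets, limma called 0 of 17028 in MAS5, 0 of 45037 with no filter and 2 of 17028 with the block. The counts of 0 therefore say little about the members. Signs were less firm: Nr2c1 1449157_at and Zbtb7a 1450093_s_at kept theirs, and the other 14 tested members changed sign under at least 1 alternative. In MAS5 with pseudocounts of 1 and 32, the differences were 0.050 and 0.031 for Zbtb7a 1437255_at, 0.055 and 0.051 for Zbtb7a 1452932_at, −0.21 and −0.20 for Nr2c1 1418605_at, 0.029 and 0.026 for Nr2c2 1425014_at, and −0.054 and −0.053 for Nr2c2 1454851_at. With quantile normalization, Sox6 1427677_a_at read 0.0081 and Zbtb7a 1437255_at 0.0012. Without both replicate 1 arrays, the differences were −0.034 for Bcl11a 1419406_a_at, −0.094 for Bcl11a 1456632_at, 0.0056 for Sox6 1427677_a_at, −0.019 for Sox6 1434918_at, −0.082 for Sox6 1447655_x_at and 0.031 for Zbtb7a 1437255_at. Leaving out 1 array at a time gave −0.30 to 0.31, −0.12 to 0.27, −0.26 to 0.34 and −0.41 to 0.22 for the 4 Bcl11a probe sets in the order of the report. It gave −0.16 to 0.11, −0.022 to 0.087 and −0.073 to 0.25 for Sox6 1427677_a_at, 1434918_at and 1447655_x_at, and −0.087 to 0.042 for Zbtb7a 1437255_at. It gave −0.028 to 0.74 and −0.065 to 0.18 for Nr2c1 1418605_at and 1439490_at, and −0.045 to 0.19 for Nr2c2 1451569_at. In the partner list 1 gene, Ehmt2, was called with the stricter filter at log2 5, with the replicate block and with array weights. The list median ran from −0.00093, without knockdown replicate 1, to 0.072 when 1 array was left out. Member probe sets with groups apart numbered 3 to 12 of 32 with 1 array left out. The 12 came without wild type replicate 1, where 55.9% of all probe sets were apart. Without both replicate 1 arrays 18 were apart, against 64.3%. Among the 16 members under the filter they numbered 2 to 10 with 1 array left out. The 10 came without wild type replicate 1, against 74.4% of all probe sets under the filter. Without both replicate 1 arrays 14 of these were apart, against 79.4%, and with median centring 1 was. Shares over all probe sets are not given for median centring or for leaving out a replicate 2 or 3 array. The cause of these shifts was not tested. Alternatives on normalization and on both replicate 1 arrays for members under the filter, and on left-out arrays for counts of groups apart and of probe sets above background, were added after the data were seen.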
